A study of Mus musculus with 2 samples.

Results

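Muscle of young mice held RNA of all 10 genes followed here, which act in the switch that decides whether a cell divides or leaves the cycle. Of 55536 annotated genes, the 10 are the D cyclins Ccnd1, Ccnd2 and Ccnd3, their kinases Cdk4 and Cdk6, the kinase inhibitors Cdkn1a, Cdkn1b and Cdkn2c, the gate Rb1 and the transcription factor E2f4. Members were taken by symbol, with no threshold on level, and each symbol matched 1 gene. The gastrocnemius, a calf muscle made mainly of fast fibres, was taken whole for total RNA sequencing from male B6CASTF1/J mice aged 10 days. B6CASTF1/J is a hybrid strain supplied by The Jackson Laboratory. The 2 libraries form 1 group, with 300 ng of input RNA and added ERCC spike-in RNAs. They carry the same donor code but different animal numbers in the labels, and were treated as coming from 2 mice. No second condition was labelled, so the values describe levels and the spread between 2 animals, and nothing was tested.

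D cyclins bind and activate Cdk4 and Cdk6, which phosphorylate the Rb1 protein and release E2F transcription factors to switch on genes of DNA synthesis. Inhibitors of the Cip/Kip group (Cdkn1a, Cdkn1b, Cdkn1c) and of the Ink4 group (Cdkn2a to Cdkn2d) oppose these kinases. When myoblasts fuse into fibres they leave the cycle for good, a step in which Cdkn1a and Rb1 are known to act, while E2f4 is known mainly as a repressor that sits with pocket proteins on cycle genes in resting cells. Satellite cells and other mononuclear cells of young muscle still divide.

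The libraries held 38874862 and 38160786 expected counts in replicates 1 and 2. Markers of skeletal muscle fibre were detected, 6 of 6, with summed levels of 62007 TPM in replicate 1 and 62875 TPM in replicate 2 (TPM, a level scaled to the library and corrected for transcript length). Whole tissue also carried other cells. Summed markers of satellite cells reached 26.0 and 24.2 TPM, of dividing cells 46.5 and 37.1 TPM, of endothelial cells 143 and 152 TPM, of mural cells 347 and 400.0 TPM, of fibro-adipogenic cells 2460 and 2225 TPM, of macrophages 42.7 and 39.5 TPM and of Schwann cells 495 and 418 TPM in replicates 1 and 2. No marker on these lists was at 0. Which cells supplied the RNA of each cycle gene was not measured, and in such bulk samples fewer cells of a type and less RNA per cell cannot be told apart.

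All 10 had 1 TPM or more in both libraries, against 51.4% of 22028 protein-coding genes. Their median level was 16.2 TPM, and among detected protein-coding genes they ran from percentile 17.9 for Cdk6 to percentile 90.2 for Cdk4. With TPM rescaled to protein-coding genes the mean levels were higher throughout, such as 115 TPM for Cdk4 and 92.2 TPM for Ccnd3. The falling order of mean TPM was Cdk4, Ccnd3, Cdkn1b, Cdkn1a, Ccnd1, Ccnd2, Rb1, E2f4, Cdkn2c and Cdk6. Of the 9 neighbouring pairs in that order, 7 held it within each library. In 5 pairs the lower value of one gene exceeded the higher value of the next, and the pairs whose ranges overlapped were Cdkn1b and Cdkn1a, Cdkn1a and Ccnd1, Ccnd1 and Ccnd2, and E2f4 and Cdkn2c. With the deposited 95% credible intervals of each estimate taken into account, 3 steps remained apart in both libraries, those from Ccnd3 down to Cdkn1b, from Rb1 down to E2f4 and from Cdkn2c down to Cdk6. In the second transcript table the steps from Ccnd2 down to Rb1 and from E2f4 down to Cdkn2c were not kept in both libraries.

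**Figure D1:**
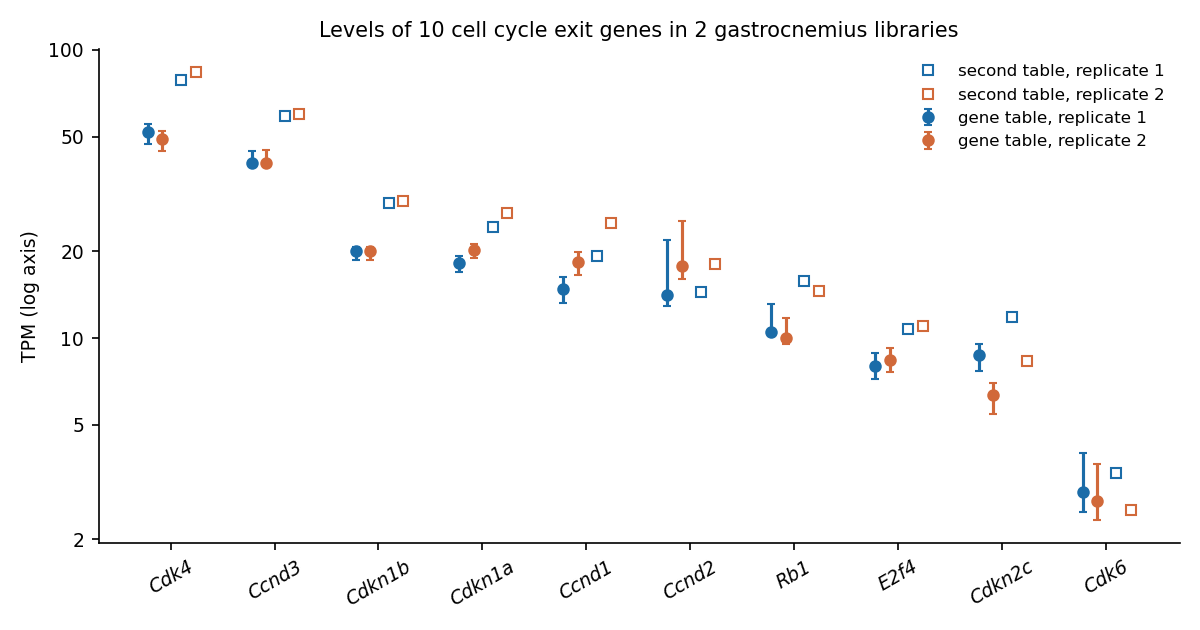
TPM of the 10 genes on a log axis in replicate 1 (blue) and replicate 2 (orange). Filled circles are the deposited gene table with its 95% credible intervals, and open squares are gene sums of the second transcript table. Cdk4 lies highest and Cdk6 lowest in both tables.

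Among the D cyclins, Ccnd3 had the highest level. Ccnd3, the D cyclin that accumulates when mouse myoblasts differentiate in culture, lies at chr17:47505051-47599691 on the plus strand (ENSMUSG00000034165.16, mm10). It measured 40.6 TPM in replicate 1 and 40.4 TPM in replicate 2, from 2495 and 2394 expected counts. The 2 animals were nearly equal, at a log2 ratio of replicate 1 over replicate 2 of -0.01 (95% counting interval -0.09 to 0.07). Ccnd3 made up 58.4% of the summed D cyclin TPM in replicate 1 and 52.8% in replicate 2, or 55.6% ± 3.96 (SD, n = 2). It lay 2.45-fold above Ccnd1 and 2.55-fold above Ccnd2, with log2 differences of 1.30 ± 0.23 and 1.35 ± 0.23 (SD, n = 2). Of the expected counts, which keep transcript length, its share was 44.1% and 38.3%. The effective length in replicate 1 was 1893 bases for Ccnd3, 3191 for Ccnd1 and 3581 for Ccnd2.

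In TPM of the gene table Ccnd1 and Ccnd2 were close to each other, and both were lower in replicate 1. Ccnd1, the D cyclin best known as a target of growth factor signals, lies at chr7:144929931-144939925 on the minus strand (ENSMUSG00000070348.5). It measured 14.8 TPM in replicate 1 and 18.4 TPM in replicate 2, from 1527 and 1942 expected counts. Ccnd2, its close relative at chr6:127125162-127152193 on the minus strand (ENSMUSG00000000184.12), measured 14.1 TPM in replicate 1 and 17.7 TPM in replicate 2, from 1642 and 1910 expected counts. Within each library the level of Ccnd2 was 0.963-fold that of Ccnd1, with a log2 difference of -0.05 ± 0.01 (SD, n = 2). That closeness depended on the estimate. In the second transcript table Ccnd2 was 0.734-fold Ccnd1. By posterior mean TPM the order turned, with Ccnd2 at 17.05 and 20.52 and Ccnd1 at 14.68 and 18.13 in replicates 1 and 2. Their shares of D cyclin TPM were 22.6% ± 1.96 for Ccnd1 and 21.8% ± 2.01 for Ccnd2 (SD, n = 2).

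The kinases were unequal. Cdk4 (chr10:127063534-127067920, plus strand, ENSMUSG00000006728.12) measured 51.8 TPM in replicate 1 and 49.2 TPM in replicate 2, from 1201 and 1169 expected counts. Cdk6, which binds the same cyclins, lies at chr5:3341485-3531008 on the plus strand (ENSMUSG00000040274.11) and had 2.92 and 2.72 TPM from 609 and 561 expected counts in replicates 1 and 2. Cdk4 therefore took 94.7% of their joint TPM in replicate 1 and 94.8% in replicate 2, a log2 difference of 4.12 ± 0.02 (SD, n = 2) or 17.3-fold. That gap leaned on transcript length. In expected counts Cdk4 held 66.4% and 67.6% of the pair. From transcripts annotated as protein-coding alone, the log2 difference was 2.27 ± 0.26 (SD, n = 2), or 4.81-fold, and in the second table it was 3.23 ± 0.42 (SD, n = 2), or 9.37-fold.

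In TPM, the Cdk4 level rested mostly on short RNAs that are not annotated as protein-coding. Cdk4-209, a retained-intron transcript of 468 bases, took 41.7% of the gene's TPM in replicate 1 and 40.9% in replicate 2. Cdk4-208, annotated for nonsense-mediated decay, took 22.6% and 22.8%, and the protein-coding Cdk4-205 took 11.2% and 18.6%. The full-length Cdk4-201, of 2053 bases, took 6.34% and 7.01%. In all, transcripts not annotated as protein-coding held 75.5% and 69.1% of Cdk4 TPM, above 97.7% of 10032 protein-coding genes with several transcripts, whose medians were 8.75% and 6.84%. The second transcript table gave Cdk4 65.9% and 64.8% of TPM. These shares leaned on transcript length. Of expected counts, which keep length, such transcripts held 61.4% and 54.2%, and Cdk4-209 alone 21.5% and 20.6%. By estimated counts in the second table Cdk4-209 held 11.0% and 11.5%, below Cdk4-201 at 20.7% and 22.2%. There Cdk4-208 held 15.0% and 18.9%, the retained-intron Cdk4-207 19.2% and 11.4%, and Cdk4-203 and Cdk4-206 at most 0.54%. By that measure the transcripts not annotated as protein-coding did not hold most of the gene. Of the 468 bases of Cdk4-209, 443 lie in exons of Cdk4-201, so reads from either transcript can match both. All 924 exon bases of Cdk4-208, and 932 of the 950 of Cdk4-205, also lie in exons of Cdk4-201. A neighbour on the opposite strand, Tspan31, covers 19.7% of Cdk4 exon bases and had 12.6 and 12.9 TPM.

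**Figure D2:**
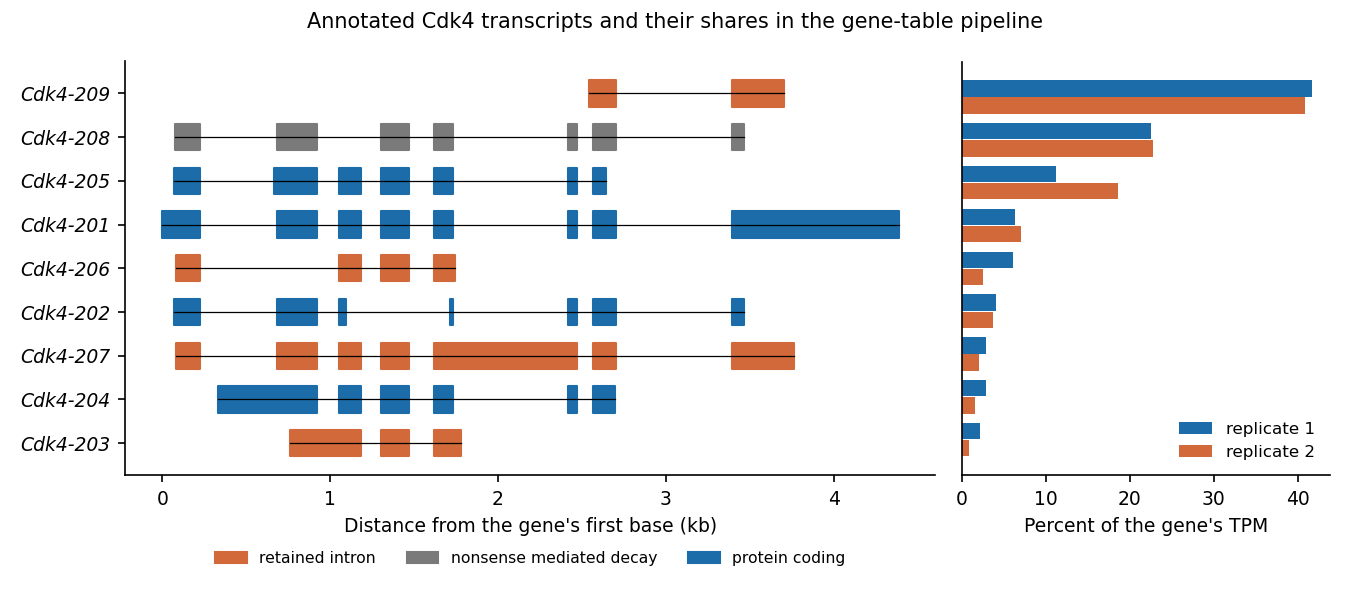
Left, exons of the 9 annotated Cdk4 transcripts by distance in kb from the gene's first base, coloured by annotated class. Right, each transcript's percent of Cdk4 TPM in replicate 1 (blue) and replicate 2 (orange): the short Cdk4-209 leads with 41.7% and 40.9%.

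Of the inhibitors, the Cip/Kip genes Cdkn1b and Cdkn1a stood close together in TPM of the gene table. Cdkn1b, the p27 gene at chr6:134920401-134925513 on the plus strand (ENSMUSG00000003031.14), measured 19.99 TPM in replicate 1 and 20.01 TPM in replicate 2, from 1797 and 1730 expected counts. Cdkn1a, the p21 gene and a p53 target, lies at chr17:29090976-29100727 on the plus strand (ENSMUSG00000023067.14). It measured 18.3 TPM in replicate 1 and 20.3 TPM in replicate 2, from 1071 and 1189 expected counts. The log2 difference of Cdkn1b over Cdkn1a was 0.05 ± 0.10 (SD, n = 2), smaller than its spread. In the second transcript table it was 0.28 in replicate 1 and 0.13 in replicate 2, with Cdkn1b 1.15-fold higher.

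Cdkn2c, the Ink4 gene for p18, lies at chr4:109660876-109667189 on the minus strand (ENSMUSG00000028551.14). It measured 8.76 TPM in replicate 1 and 6.34 TPM in replicate 2, from 517 and 385 expected counts. The other inhibitors spanned a wide range. Cdkn1c, the imprinted p57 gene, measured 424 TPM in replicate 1 and 469 TPM in replicate 2. Cdkn2d, another Ink4 gene, had 6.05 and 6.12 TPM. Cdkn2a and Cdkn2b, inhibitors known from senescent cells, had at most 0.19 TPM, from 3 to 6 expected counts per library.

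Because of Cdkn1c, the 3 inhibitors among the members held small parts of the family total. Cdkn1b was 4.01% ± 0.250, Cdkn1a 3.86% ± 0.0389 and Cdkn2c 1.53% ± 0.439 of the summed TPM of 7 inhibitor genes (SD, n = 2). With Cdkn1c set aside, Cdkn1b held 37.5% in replicate 1 and 37.8% in replicate 2. Cdkn1a then held 34.3% and 38.2%, and Cdkn2c 16.4% and 12.0%. The summed D cyclins reached 69.5 and 76.5 TPM in replicates 1 and 2, and the summed inhibitors 477 and 522 TPM. The log2 difference of D cyclins over inhibitors was -2.77 ± 0.01 (SD, n = 2), so that inhibitor RNA stood 6.83-fold higher. Without Cdkn1c the same difference was 0.46 ± 0.10 (SD, n = 2), in favour of the D cyclins.

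Rb1, which encodes the pocket protein that holds E2F factors, lies at chr14:73183673-73325822 on the minus strand (ENSMUSG00000022105.6). It measured 10.5 TPM in replicate 1 and 9.97 TPM in replicate 2, from 1460 and 1381 expected counts. Its relatives Rbl2 (p130), typical of resting cells, and Rbl1 (p107), typical of dividing cells, had 7.14 and 2.44 TPM in replicate 1 and 6.98 and 2.22 TPM in replicate 2. Rb1 made up 52.3% and 52.0% of the pocket protein TPM. Its lead over Rbl2, a log2 difference of 0.53 ± 0.03 (SD, n = 2), was absent from the second transcript table, where the Rb1 level was 0.997-fold that of Rbl2.

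E2f4 lies at chr8:105297663-105305370 on the plus strand (ENSMUSG00000014859.9) and measured 7.97 TPM in replicate 1 and 8.40 TPM in replicate 2, from 466 and 505 expected counts. It was the second of 8 E2F genes, with 16.5% and 17.3% of their summed TPM. E2f6, a repressor that works without pocket proteins, led at 25.9 and 25.8 TPM, 3.14-fold above E2f4. E2f3 followed at 4.68 and 5.06 TPM. E2f1 and E2f2, activators of S-phase genes, had 2.68 and 2.95 TPM in replicate 1 and 2.33 and 2.52 TPM in replicate 2. E2f5, E2f7 and E2f8 lay between 1.03 and 1.77 TPM in both libraries.

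**Figure D3:**
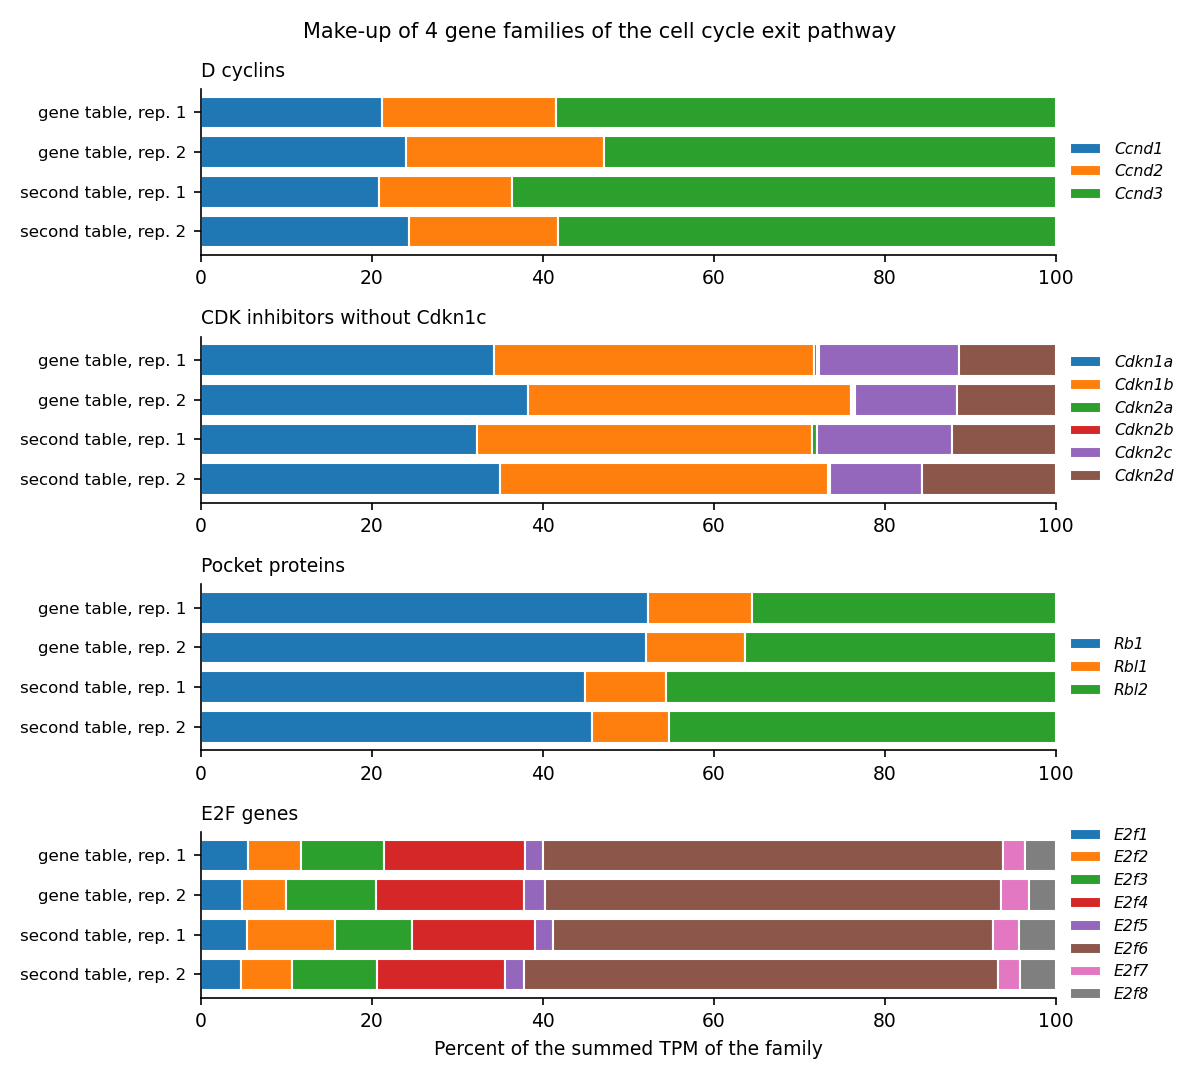
Percent of the summed TPM within D cyclins, inhibitors without Cdkn1c, pocket proteins and E2F genes, with 1 bar per library and table. Ccnd3 holds the widest part of the D cyclins in every bar, and E2f6 that of the E2F genes.

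Partners of these genes were also detected. The DP partners of E2F, Tfdp1 and Tfdp2, had 19.2 and 20.7 TPM in replicate 1 and 18.1 and 18.5 TPM in replicate 2. In the DREAM complex, which silences cycle genes with E2f4 and Rbl2, the histone-binding Rbbp4 had 41.2 and 40.8 TPM. Its MuvB subunits Lin9, Lin37, Lin52 and Lin54, and Mybl2, which joins MuvB in dividing cells, lay between 1.58 and 4.84 TPM. Of corepressors that bind Rb1 or its relatives, Hdac2 had 43.6 and 38.4 TPM, Sin3b 33.3 and 31.8 TPM, Kdm5a 10.6 and 10.1 TPM, Hdac1 10.2 and 8.59 TPM, Arid4a 4.67 and 3.63 TPM and Suv39h1 2.73 and 2.88 TPM in replicates 1 and 2.

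The kinase complex that activates CDKs had 8.66 and 7.44 TPM of Cdk7, 9.23 and 10.3 TPM of Ccnh and 12.4 and 10.2 TPM of Mnat1. Among genes linked to the removal of D cyclins or p27, Fbxo31 had 29.9 and 31.1 TPM, Cks1b 8.39 and 6.69 TPM, Fzr1 7.49 and 7.37 TPM, Ambra1 7.07 and 7.09 TPM, Fbxo4 2.41 and 2.33 TPM and Skp2 2.35 and 1.75 TPM. Of the later cyclins and kinases, Cdk1 had 10.9 and 7.34 TPM, Ccna2 7.81 and 5.80 TPM, Cdk2 5.95 and 5.61 TPM, Ccnb2 5.0 and 4.71 TPM, Ccnb1 4.44 and 4.90 TPM, Ccne2 3.68 and 3.04 TPM and Ccne1 1.31 and 1.44 TPM in replicates 1 and 2.

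The spread between the mice was small for most of the 10 genes. Ratios of scaled counts, replicate 1 over replicate 2, had a median log2 of -0.02, the same as over 10967 protein-coding genes whose expected counts averaged 100 or more. Past 1.2-fold, 1 member was higher in replicate 1 and 2 were higher in replicate 2, against backgrounds of 6.44% and 8.67% of those genes, and 15.1% in either direction. The member higher in replicate 1 was Cdkn2c, at a log2 ratio of 0.36 (95% counting interval 0.16 to 0.55). Those higher in replicate 2 were Ccnd1, at -0.42 (-0.51 to -0.32), and Ccnd2, at -0.29 (-0.38 to -0.19). Scaled by library totals or by spike-ins, Ccnd2 lay inside the 1.2-fold limit, leaving 1 member. For Ccnd1, 4.71% of the background genes had a larger ratio in either direction, for Cdkn2c 7.36% and for Ccnd2 12.5%.

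Among the other members, Cdkn1a had a log2 ratio of -0.22 (-0.34 to -0.10) and E2f4 one of -0.19 (-0.37 to -0.0012), both under 1.2-fold. Cdk4, Ccnd3, Cdkn1b, Rb1 and Cdk6 lay between -0.03 and 0.05, with counting intervals that held 0. Cell markers moved beside these ratios. Of the 10967 background genes, 6129 were higher in replicate 2. By scaled counts 7 of the 10 members were so too, Ccnd1 and Ccnd2 among them, as were all 5 endothelial and all 5 mural markers. No endothelial marker was past 1.2-fold. The mural markers Acta2 and Myh11 were, at -0.36 and -0.44, while Pdgfrb lay at -0.04 with an interval that held 0. Of 5 markers of dividing cells, 4 were higher in replicate 1, as was Cdkn2c, with Mki67 at 0.33 and Cdk1 at 0.40. Fibro-adipogenic and Schwann cell markers were likewise higher in replicate 1 for 4 of 5 each, at medians of 0.13, with none past 1.2-fold. Muscle fibre markers were higher in replicate 2 for 4 of 6, at a median of -0.11, with none past 1.2-fold. Satellite cell and macrophage markers were higher in replicate 2 for 3 of 5 each, with the macrophage marker Adgre1 past 1.2-fold at -0.34. The part of these cells in the ratios was not tested.

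**Figure D4:**
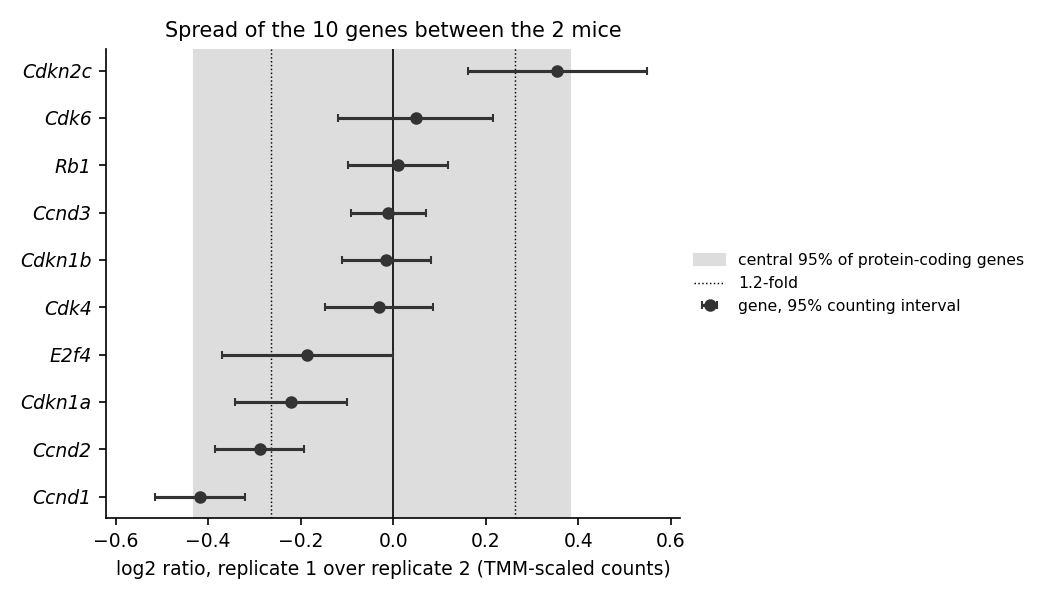
Log2 ratio of replicate 1 over replicate 2 for each gene (points, with 95% counting intervals) against the central 95% of 10967 protein-coding genes (grey, -0.43 to 0.38) and the 1.2-fold limits (dotted). Cdkn2c lies to the right of the limit, and Ccnd1 and Ccnd2 lie to the left.

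In the wider pathway, the D cyclins had 2 of 3 genes past 1.2-fold, the members Ccnd1 and Ccnd2, both higher in replicate 2. Over the background genes 15.1% were past it in either direction, and lists this short were not tested against that share. The inhibitors had 2 of 7 higher in replicate 1, Cdkn2c and Cdkn2a, and 1 higher in replicate 2, Cdkn2b. Cdkn2a and Cdkn2b had only 3 to 6 counts. The later cyclins and kinases had 2 of 7, Cdk1 at 0.40 and Ccna2 at 0.28, both higher in replicate 1. Cdk1 is also among the markers of dividing cells. Skp2, which marks p27 for removal, was higher in replicate 1 at 0.37, 1 of 6 on its list. Lin37 was higher in replicate 2 at -0.28, 1 of 6 on the list of DREAM and related MuvB genes, with a counting interval of -0.64 to 0.08. No pocket protein, E2F, DP, CDK-activating or Rb1 corepressor gene was past 1.2-fold.

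Cdkn1a was set beside p53 and 11 of its other targets. By mean level Ccng1 was the highest of these at 250.2 and 226 TPM, followed by Gadd45a at 34.9 and 20.02 TPM and Sesn1 at 19.3 and 17.0 TPM, while Sesn2 was lowest at 0.93 and 1.02 TPM in replicates 1 and 2. Gadd45a was higher in replicate 1, at a log2 ratio of 0.77. Btg2 at -0.82 and Phlda3 at -0.36 were higher in replicate 2. Targets past 1.2-fold thus lay in both directions, and the median over the list was 0.03.

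For 9 of the members a single annotated transcript in the deposited transcript table held more than 50% of the gene's TPM on average, the exception being Cdk4. By the posterior mean percent in the same table the number was 7, since Ccnd2-201 then averaged 42.6% and Cdk6-202 46.1%. Rb1-201 held 93.3% and 92.6%, E2f4-201 92.1% and 95.1%, and Ccnd1-201 85.7% and 87.8% in replicates 1 and 2. Ccnd1-202, a retained-intron transcript of 470 bases, held 12.9% and 10.8%. Cdkn1b-201 held 76.2% and 82.9%, and Cdkn1b-202, which contains every exon base of Cdkn1b-201, held 22.5% and 17.1%.

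Ccnd2-201 held 53.4% of Ccnd2 TPM in replicate 1 and 49.5% in replicate 2, but 92.9% of its expected counts in both. Most of the remaining TPM came from Ccnd2-206, of 627 bases, at 27.3% and 24.1%, and Ccnd2-207, of 415 bases, at 16.2% and 23.4%. The second table listed Ccnd2-207 at 0. Cdk6-202, of 11525 bases, held 52.0% and 51.3% of TPM and 92.2% of expected counts in each replicate. Cdk6-205 at 20.5% and 13.3%, Cdk6-203 at 12.4% and 21.7% and Cdk6-201 at 15.2% and 13.3% shared most of what remained, on at most 34.1 expected counts each. Short transcripts thus carried large TPM shares on few counts for both genes.

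Taken by the mean of the libraries, the leading transcript differed between the deposited tables for 2 of the 10 members, Ccnd3 and Cdkn1a, against 23.2% of protein-coding genes with several transcripts. Cdkn1a did so in each library and Ccnd3 in replicate 1, whereas in replicate 2 Ccnd3-205 led both tables. Both genes, and Cdkn2c, have 2 start sites in RefSeq, and their start regions are printed because the tables bear on which start was used. Each window runs from 250 bases before to 50 bases after a start, from RefSeq on GRCm38.p6, 5′ to 3′ on the gene's strand. Capitals mark the E-box CANNTG, the letters bound by MyoD-type and Myc-type factors, and the GC box GGGCGG, each searched on both strands. E-boxes were found in 72.3% and GC boxes in 35.7% of 32851 windows of this length. The E2F words TTTCCCGC, TTTGGCGC, TTTCGCGC and TTTGCCGC, found in 2.265% of those windows, were not in the ones printed, and no marked match overlaps another. A match is a description of the letters and not a site. The windows lie at chr17:47504801-47505100 and chr17:47593217-47593516 (plus strand), chr17:29090729-29091028 and chr17:29093519-29093818 (plus strand), and chr4:109666707-109667006 and chr4:109665323-109665622 (minus strand), upstream start first.
Ccnd3, upstream start: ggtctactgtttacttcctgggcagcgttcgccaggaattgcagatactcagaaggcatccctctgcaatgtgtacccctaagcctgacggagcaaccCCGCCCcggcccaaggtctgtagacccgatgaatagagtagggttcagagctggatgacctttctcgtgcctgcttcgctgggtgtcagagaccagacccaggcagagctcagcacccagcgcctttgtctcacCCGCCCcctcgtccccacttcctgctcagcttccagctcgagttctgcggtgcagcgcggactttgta
Ccnd3, downstream start: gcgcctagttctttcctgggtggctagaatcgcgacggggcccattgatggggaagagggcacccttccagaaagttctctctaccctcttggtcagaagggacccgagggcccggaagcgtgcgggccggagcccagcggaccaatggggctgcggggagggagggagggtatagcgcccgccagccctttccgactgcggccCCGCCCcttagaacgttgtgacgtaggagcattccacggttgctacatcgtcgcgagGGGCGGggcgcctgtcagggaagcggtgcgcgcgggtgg
Cdkn1a, upstream start: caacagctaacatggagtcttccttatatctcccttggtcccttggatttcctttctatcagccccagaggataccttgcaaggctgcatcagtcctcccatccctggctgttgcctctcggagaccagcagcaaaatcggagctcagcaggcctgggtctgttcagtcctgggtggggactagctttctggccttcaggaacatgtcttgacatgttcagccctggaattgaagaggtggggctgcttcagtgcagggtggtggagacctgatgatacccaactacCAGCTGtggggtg
Cdkn1a, downstream start: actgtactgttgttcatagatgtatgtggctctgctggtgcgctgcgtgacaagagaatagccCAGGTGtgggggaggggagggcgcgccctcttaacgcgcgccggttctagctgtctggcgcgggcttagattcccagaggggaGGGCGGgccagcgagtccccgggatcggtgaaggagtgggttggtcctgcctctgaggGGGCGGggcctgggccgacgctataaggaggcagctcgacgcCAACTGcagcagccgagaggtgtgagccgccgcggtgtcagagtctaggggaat
Cdkn2c, upstream start: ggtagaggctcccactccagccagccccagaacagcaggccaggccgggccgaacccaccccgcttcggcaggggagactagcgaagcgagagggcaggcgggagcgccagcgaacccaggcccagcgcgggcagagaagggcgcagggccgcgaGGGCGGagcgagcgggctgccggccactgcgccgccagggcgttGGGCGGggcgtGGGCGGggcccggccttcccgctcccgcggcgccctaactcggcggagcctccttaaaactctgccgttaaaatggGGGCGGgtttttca
Cdkn2c, downstream start: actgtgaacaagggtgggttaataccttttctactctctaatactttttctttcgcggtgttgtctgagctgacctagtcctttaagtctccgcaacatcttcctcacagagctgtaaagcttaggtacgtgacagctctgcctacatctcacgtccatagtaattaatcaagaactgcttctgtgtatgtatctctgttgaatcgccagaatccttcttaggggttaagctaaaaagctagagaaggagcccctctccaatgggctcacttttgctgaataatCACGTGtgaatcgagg

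The Cdkn2c windows were the least alike. The upstream one had 4 GC boxes, no E-box and a GC content of 73.3%, and the downstream one had no GC box, 1 E-box that begins 34 bases after the start (CACGTG) and a GC content of 44.0%. The starts lie 1384 bases apart. A shorter Cdkn2c transcript from a downstream start is known from differentiating mouse myoblasts. Cdkn2c-202, of 2471 bases, was assigned to the upstream start and held 59.6% and 63.3% of TPM in replicates 1 and 2. Cdkn2c-201, of 1106 bases, begins at the downstream start and held 40.4% and 36.7%. In the second table the downstream share was lower, at 23.9% and 18.9%, and both tables placed most of the TPM at the upstream start in both mice. Cdkn2c-202 is annotated from 109667189, beyond the RefSeq start at 109666756, so the printed upstream window lies downstream of the start that GENCODE draws. Of 1106 exon bases of Cdkn2c-201, 891 are shared with Cdkn2c-202.

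For Cdkn1a the tables agreed on the start and not on the transcript. The downstream start held 98.9% and 98.7% of TPM in the first table and 97.2% and 93.5% in the second, and the upstream start, 2790 bases away, was listed at 0 in both. The downstream window had 2 E-boxes and 2 GC boxes and the upstream window 1 E-box, CAGCTG. The first table gave 98.3% and 97.6% to Cdkn1a-201. The second gave 95.6% and 90.2% to Cdkn1a-205, which had 0.61% and 1.10% in the first. These transcripts share 1895 exon bases, and 18 bases of Cdkn1a-201 and 185 of Cdkn1a-205 are their own.

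For Ccnd3 the tables differed on the start itself. The downstream start held 98.0% and 92.7% of TPM in the first table and 12.2% and 32.5% in the second, where the upstream start, 88416 bases away, held 87.8% and 67.5%. Ccnd3-205, which begins at the downstream start, had 96.3% and 91.7% in the first table and 10.5% and 31.6% in the second. The second table spread the TPM over several transcripts and was led by Ccnd3-215 at 25.9% in replicate 1 and by Ccnd3-205 in replicate 2. By the mean of the libraries it was led by Ccnd3-218, at 19.2% and 30.3%, which the first listed at 0. Ccnd3-205 and the upstream Ccnd3-201 share 1793 exon bases and have 184 and 206 bases of their own, so reads bear on the choice where they touch those bases. The Ccnd3 start thus depended on the table, while its gene level led the D cyclins in both. Each Ccnd3 window had 2 GC boxes and no E-box.

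**Figure D5:**
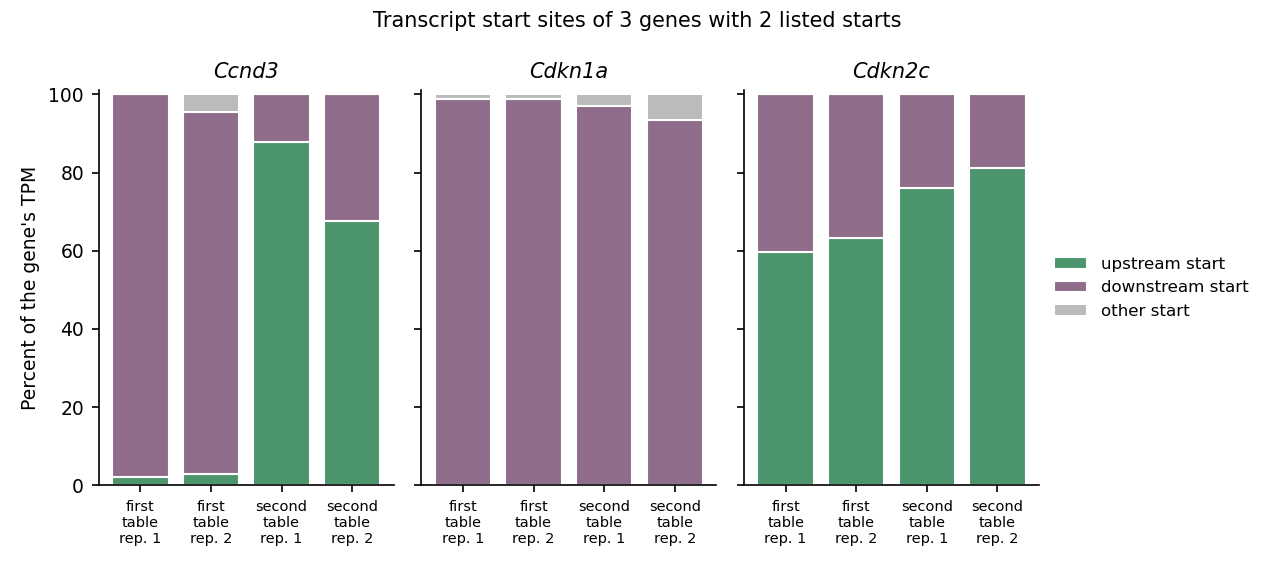
Percent of gene TPM from the upstream start (green), the downstream start (purple) and other starts (grey) for Ccnd3, Cdkn1a and Cdkn2c, in the deposited transcript table that goes with the gene table (first) and in the second. Cdkn1a is drawn almost wholly from its downstream start in both, whereas Ccnd3 changes between them.

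Promoter windows were also found for Cdk4, Cdk6 and Cdkn1b, giving 6 of 10 members, and Ccnd1, Ccnd2, Rb1 and E2f4 had no entry. The Cdk4 window had 4 E-boxes, each CACGTG, and 3 GC boxes. The Cdk6 window had 1 E-box and no GC box, and the Cdkn1b window had 1 GC box and no E-box.

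Overlap with neighbours limits some levels. On the opposite strand LTO1 covers 23.4% of Ccnd1 exon bases, and it had 5.48 and 3.66 TPM in replicates 1 and 2, higher in replicate 1 where Ccnd1 was lower. LTO1 had 288 and 223 expected counts and Ccnd1 had 1527 and 1942. The part of overlapping reads in the Ccnd1 ratio was not tested. Rcbtb2 and Lpar6 cover 8.11% and 6.78% of Rb1 and Bysl 4.11% of Ccnd3. The sources used here do not state whether reads were counted by strand, so those in the overlapping stretches cannot be told apart. No stretch of 31 bases was shared between members, and 294 such stretches of Ccnd3 also occur in its pseudogene Ccnd3-ps. Cdkn2c shared none with any other gene.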

How the data were processed

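RNA of 2 gastrocnemius libraries, which form 1 group, was measured in tables deposited with the series. Per the file headers, the first deposited tables, laid out as RSEM writes them, give expected counts, posterior means, TPM with 95% credible intervals and each transcript's percent of its gene. Per the deposited notes they rest on GENCODE M21 and mm10. A further deposited table per library, laid out as kallisto writes it, gives estimated counts and TPM, which were summed per gene. The aligner and all versions were not given in the sources used here. Deposited TPM is scaled over all features. Levels in the second table were higher by a median log2 of 0.57 in replicate 1 and 0.53 in replicate 2.

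Members and gene lists were chosen with earlier results of these data known. All members are named, as are all genes of lists of up to 8. Of the 12 p53 genes, the 3 highest, the lowest and those past 1.2-fold are named. Transcripts named are the leading one of each member and any other at 10% or more in both libraries, and a few chosen after their values were seen.

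Expected counts were rounded to whole numbers and scaled with TMM in edgeR 4.0.16 (R 4.3.3) over the 16214 genes whose counts averaged 10 or more, and ratios used a prior count of 0.5. Counting intervals are exact binomial (Clopper-Pearson) intervals at 95%, cover counting error only, and assume independent reads, which PCR copies are not. Differences between genes are log2(TPM + 0.1) within a library. Transcripts were assigned to a RefSeq start within 500 bases. DESeq2 1.42.0 size factors, library totals, spike-in totals, posterior means, TPM rescaled to protein-coding genes, the second table, other pseudocounts and filters, and leaving out each replicate were the alternatives. The scaling and ratios were tested on simulated data. The rest ran in Python 3.11.15 with scipy 1.17.1, pandas 2.3.3, numpy 2.4.6 and matplotlib 3.10.9. With no second condition, no p-value was computed.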

Additional observations from a re-analysis of the deposited data

How the results depend on the processing

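All 10 members had 1 TPM or more under every alternative run, and Cdkn2c was past 1.2-fold in each scaling, table and estimate, between 0.34 and 0.40 on the log2 scale. Ccnd1 lay between -0.43 and -0.37 and Ccnd2 between -0.31 and -0.24, so that with library totals or spike-in totals 1 member in place of 2 was past 1.2-fold higher in replicate 2. Cdk4 over Cdk6, 4.12 on the log2 scale, became 4.74 in the second table, 3.97 with posterior means, 3.75 with a pseudocount of 1, 2.27 from protein-coding transcripts and 3.23 from those in the second table, the last 2 added after seeing the data. D cyclins over inhibitors, -2.77, became -3.07 in the second table, -2.66 with posterior means and -2.76 with a pseudocount of 1. In the second table the shares were 16.5% for Ccnd2 and 60.9% for Ccnd3 among D cyclins, 3.13% for Cdkn1a and 3.61% for Cdkn1b among inhibitors, 14.7% for E2f4 and 45.3% for Rb1. By expected counts, which keep transcript length, they were 29.0% for Ccnd1, 29.8% for Ccnd2, 41.2% for Ccnd3, 4.70% for Cdkn1a, 7.35% for Cdkn1b, 11.8% for E2f4 and 51.5% for Rb1. With posterior means Ccnd2 was 24.2% and Rb1 51.8%. The grouping of transcripts by start was also added after seeing the data, and the downstream share of Ccnd3, 95.3% on average, became 22.3% in the second table and 87.1% with posterior means. The cause of these differences between tables was not tested.

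Leaving out a replicate only returns the value of the other library, so it adds no check. It gave Ccnd3 shares of 52.8% to 58.4%, Cdk4 over Cdk6 of 4.10 to 4.13 and D cyclins over inhibitors of -2.78 to -2.77. No paired analysis was possible because there is 1 group. With 2 libraries of whole tissue the spread rests on a single difference, and cell types, strand of counting and short transcripts limit what a level of Cdk4, Cdk6 or Ccnd2 stands for. Cdkn2a and Cdkn2b, at 3 to 6 counts, were too few for a ratio.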
